A study of Mus musculus with 9 samples.

Results

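The plasminogen activator system was followed through 6 genes of the 25239 in the expression table. They were the protease genes Plau and Plat, the receptor gene Plaur, the inhibitor gene Serpine2, and the cell-surface coagulation genes F3 and Thbd. The 6 were chosen by name as parts of this system and of the surface control of clotting, and they were picked from the measured levels of these same libraries, so their differences are given as a description with no test. The libraries came from primary astrocytes grown from the cerebral cortex of P4 mouse pups. Astrocytes were exposed to 200 µM hydrogen peroxide, an oxidant, for 3 h and returned to fresh medium. They were harvested 24 h later (day 1) or 72 h later (day 3). Untreated cultures served as the control, with no harvest time in their labels. Differences due to peroxide and to time in culture therefore cannot be told apart. Each group had 3 libraries of polyadenylated RNA, and all groups shared the same serum-containing medium. The labels do not say whether the libraries of a group came from separate cultures, so the spread between them may be technical.

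Plasminogen activators are serine proteases that cut the zymogen plasminogen to plasmin, which digests fibrin and matrix proteins. The urokinase-type activator works mainly while bound to its receptor at the cell surface, and serpins stop both activators by forming covalent complexes that endocytic receptors then clear. Tissue factor, the product of F3, starts clotting by binding factor VII, and astrocytes are known as its main source in brain. Thrombomodulin, the product of Thbd, binds thrombin and turns it from a clotting enzyme into an activator of protein C.

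The promoters of Serpine2, F3 and Plaur are shown as the 3 of the 6 that matched the table of RefSeq promoters. Among them are the gene with the highest level, Serpine2, and the gene farthest from control on day 1, Plaur. They are windows of 250 bases before to 50 bases after the start, on build GRCm38.p6. That of Serpine2 is chr1:79858616-79858915 on the minus strand, that of F3 chr3:121723287-121723586 on the plus strand and that of Plaur chr7:24462233-24462532 on the plus strand. The start used for Serpine2 is base 79858665, the end of its RefSeq gene. Its GENCODE M21 span, given below, reaches to 79861180, so the window lies inside that span. The RefSeq gene of Plaur begins at base 24460937, before the Plaur window, so that window lies inside the RefSeq span. Each is printed 5′ to 3′ in the direction of transcription, and capitals mark every match, on either strand, to the letters of one of 6 motifs.
Serpine2: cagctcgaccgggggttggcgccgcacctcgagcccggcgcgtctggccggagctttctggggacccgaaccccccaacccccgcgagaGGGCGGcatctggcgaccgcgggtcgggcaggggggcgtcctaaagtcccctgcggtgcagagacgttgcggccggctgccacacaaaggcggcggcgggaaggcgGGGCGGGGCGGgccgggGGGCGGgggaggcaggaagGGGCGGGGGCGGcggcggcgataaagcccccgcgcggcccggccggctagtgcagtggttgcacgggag
F3: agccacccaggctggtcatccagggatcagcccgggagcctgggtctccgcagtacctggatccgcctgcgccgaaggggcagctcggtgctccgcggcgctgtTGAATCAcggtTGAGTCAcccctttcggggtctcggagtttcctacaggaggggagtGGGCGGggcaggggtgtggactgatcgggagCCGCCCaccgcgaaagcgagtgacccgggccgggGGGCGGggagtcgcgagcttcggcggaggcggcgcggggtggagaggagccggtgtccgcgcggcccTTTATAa
Plaur: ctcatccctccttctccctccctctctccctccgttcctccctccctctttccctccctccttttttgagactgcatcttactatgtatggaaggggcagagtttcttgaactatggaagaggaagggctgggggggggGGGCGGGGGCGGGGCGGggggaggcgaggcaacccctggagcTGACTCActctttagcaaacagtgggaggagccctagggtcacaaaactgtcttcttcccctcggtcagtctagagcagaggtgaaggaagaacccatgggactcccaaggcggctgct

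The motifs searched were the AP-1 site TGANTCA, the cAMP response element TGACGTCA, the SP1 box GGGCGG, the TEAD site CATTCC, the SMAD pair CAGACA and the TATA box TATAAA. The F3 window held AP-1 letters at -146 and -135 from the start, and the Plaur window held them at -69. The Serpine2 window held none. AP-1 letters occurred in 7.81% of the 32851 RefSeq promoter windows. SP1 boxes were found 6 times in the Serpine2 window, 3 times in that of F3 and 3 times in that of Plaur, and 35.7% of all windows held at least 1. Some SP1 boxes in the Serpine2 and Plaur windows abut or share a base, and they appear as 1 longer run of capitals. The F3 window also held TATA letters on the opposite strand at 44 bases after the start, letters found in 13.6% of windows. None of the 3 held the letters of the cAMP response element (1.79% of windows), the TEAD site (14.7%) or the SMAD pair (21%). The GC content was 77.7% for Serpine2, 70.3% for F3 and 59.3% for Plaur, against a median of 52.7% over all windows. A match of letters is a description of the sequence and not evidence that a factor binds there.

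Levels are in FPKM, the fragment number scaled to transcript length and library size, as the authors deposited them. Whole reads could be recovered from these values. The library totals behind the FPKM, inferred from the values, were 23032594 to 38414668 reads. Reads recovered for the genes summed to 99.91 to 99.94% of these totals, which need not hold all reads sequenced. Differences are on the scale of log2(rescaled FPKM + 0.1) and are given ± their standard error (SE). The ribosomal transcript Rn45s took 7.67 to 11.9% of the library totals, with the highest shares in control replicate 1 and day 3 replicate 2. The summed level of 9 astrocyte markers was 2772 to 2841 FPKM in control, 2049 to 2312 on day 1 and 2546 to 2581 on day 3, and each of the 9 was above a mean of 1 FPKM. On day 1, 6 of them were called lower and 3 higher, the latter including Aldh1l1 (90.7 FPKM in control, 112 on day 1), while Gfap (1493 and 1235) and Aldoc (506 and 302) made up most of the sum. Other cell types had detectable markers too. The sum of 14 microglia and macrophage markers was 334 to 368 FPKM in control, 146 to 159.7 on day 1 and 283 to 359 on day 3. On day 1, 12 of 13 tested were called lower and 1 higher, Tmem119 (8.76 FPKM in control, 14.8 on day 1). Over all genes tested, 29.7% were called lower and 32.4% higher on day 1. The sum of 9 mural cell markers was 503 to 534 FPKM in control, 1046 to 1100 on day 1 and 418 to 483 on day 3, of which Acta2, a smooth muscle actin, alone gave 479, 996 and 405. Of the 9 mural markers, 4 were under a mean of 1 FPKM, and 4 of the 5 tested were called higher on day 1. The sum of 9 fibroblast and meningeal markers was 65.3 to 69.5, 21.7 to 26.1 and 66.4 to 73 FPKM in the same order. On day 1, 3 of the 5 tested were called lower, among them Dcn (45.1 FPKM in control, 9.01 on day 1) and Pdgfra (14.3 and 4.84), and 2 were called higher, Mfap5 (2.62 and 4.09) and Lama1 (1.39 and 3.61). The 9 oligodendrocyte lineage markers summed to 499 to 529, 335 to 361 and 413 to 446 FPKM, of which Olig1 alone gave 348, 279 and 330.1. All 8 tested were called lower than control on day 1, and 7 on day 3. In the neuron list, 6 of 8 markers were under a mean of 1 FPKM. The other 2, Tubb3 (37.7 FPKM in control, 39.6 on day 1) and Map2 (32.3 and 33.8), were called higher on day 1. Of 9 endothelial markers, 8, among them Pecam1, Cldn5 and Tie1, were under a mean of 1 FPKM. The other, Cdh5, was 11.1 FPKM in control, 10.9 on day 1 and 13.4 on day 3, and it was called higher on day 3 against both other groups. The part of these other cells in the levels below was not tested. In bulk libraries, fewer cells of a type and less RNA per cell cannot be told apart.

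Across the 6 genes, day 1 was marked by a high Plaur and a low Thbd. Plaur was 2.59-fold higher than in control, and Thbd was 1.44-fold lower. Serpine2 was higher on both days. Plat and F3 differed little, at 1.11-fold and 1.10-fold higher on day 1 than in control, and Plau was lowest on day 1 and highest on day 3. The plot of every library by gene shows these patterns.

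**Figure D1:**
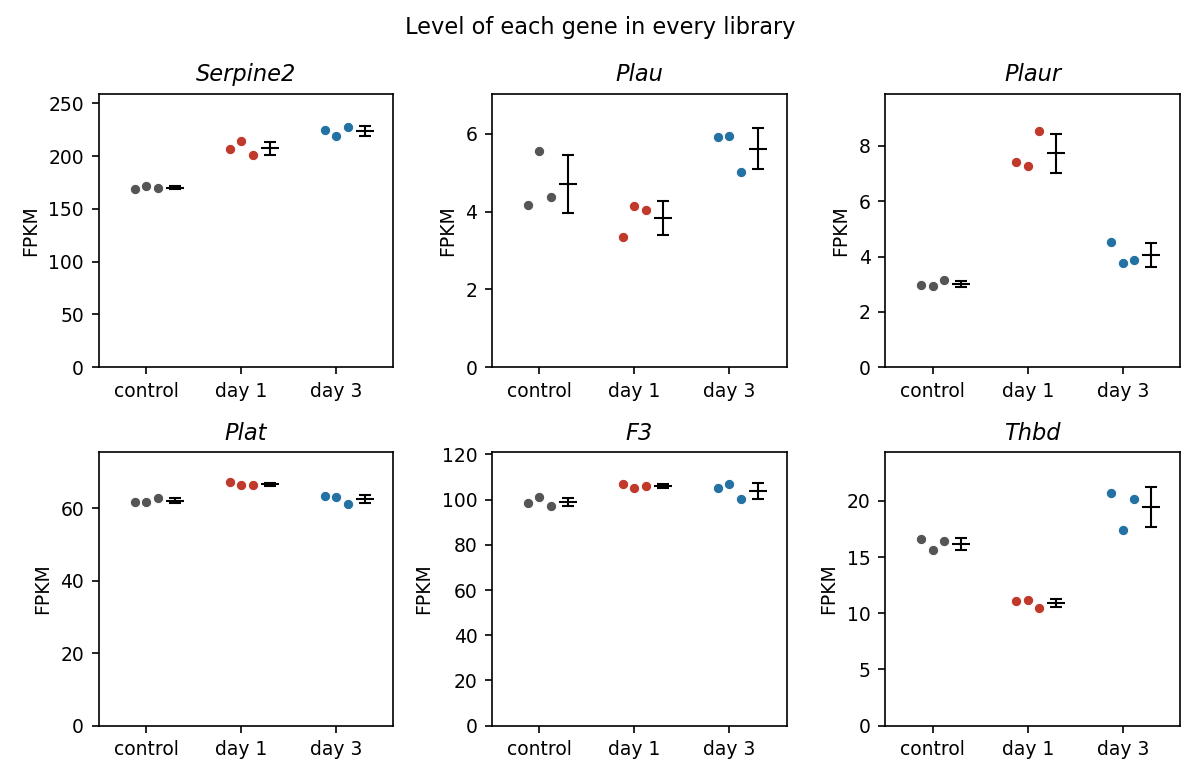
Level of each of the 6 genes in FPKM (vertical axis, from 0, a separate scale for each gene) in 3 control, 3 day 1 and 3 day 3 libraries. Points are libraries, and the bars beside them are the mean ± SD. Plaur stands highest and Thbd lowest in the 3 day 1 libraries.

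Plau encodes urokinase, the plasminogen activator that acts at the cell surface, and lies on chr14:20836660-20843385 of GRCm38 (plus strand, GENCODE M21). Its level was 4.17, 5.56 and 4.39 FPKM in the control libraries, 3.34, 4.14 and 4.04 on day 1, and 5.91, 5.94 and 5.02 on day 3. Every day 1 library was below every control and every day 3 library, while control replicate 2 lay above the lowest day 3 library. The means were 4.71 ± 0.744 in control, 3.84 ± 0.436 on day 1 and 5.62 ± 0.525 on day 3 (SD, n = 3). The log2 difference from control was -0.24 on day 1 and 0.28 on day 3, and day 3 was 0.52 above day 1, each ± 0.115 (SE). Control replicate 2 bears on the size of these values: without it the day 1 difference was -0.12 and the day 3 difference 0.40. Without day 1 replicate 1 the day 1 difference was -0.14. The control libraries varied by 15.8% (coefficient of variation), whereas counting error at their 296 to 500 reads would give 5.31%.

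Plat encodes the tissue-type activator, the form also known for roles at synapses, and lies on chr8:22757727-22782844 (plus strand). It measured 61.9, 61.7 and 63.0 FPKM without peroxide, 67.2, 66.4 and 66.6 on day 1, and 63.4, 63.2 and 61.2 on day 3. The day 1 libraries were above all others, and day 3 overlapped control. The difference from control was 0.14 on day 1 and 0.03 on day 3 (log2, each ± 0.0267 SE), the latter 0.01 without day 3 replicate 2 and 0.05 without day 3 replicate 3. Plat was far more abundant than Plau per length of transcript. Its level was 13.4 ± 2.03 times that of Plau in control, 17.6 ± 2.25 times on day 1 and 11.2 ± 0.880 times on day 3 (SD, n = 3). The lengths behind the FPKM were 2554 bases for Plat and 2343 for Plau, and the summed exons of Plat in GENCODE M21 came to 6241 bases. A level per length set between genes depends on these lengths.

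Plaur encodes the urokinase receptor, a lipid-anchored surface protein that holds urokinase and also binds vitronectin. It lies on chr7:24462484-24475968 (plus strand). Its level was 2.96, 2.92 and 3.14 FPKM in control, 7.40, 7.26 and 8.55 on day 1, and 4.54, 3.77 and 3.86 on day 3. The 3 groups did not overlap, with day 1 highest and control lowest. The log2 difference from control was 1.37 on day 1 and 0.43 on day 3, and day 3 was lower than day 1 by -0.94, each ± 0.0834 (SE). The day 1 level was 2.59-fold that of control and 1.92-fold that of day 3. The day 1 difference lay at the 99.3 percentile of all 12611 genes tested. At 135 to 305 reads, counting error was 5.9 to 8.17% of the level, which is of the order of the spread seen within groups (3.89 to 10.4%). The 2 partners of the urokinase complex moved apart on day 1. Plaur was 0.649 ± 0.108 times Plau in control, 2.03 ± 0.243 times on day 1 and 0.724 ± 0.0779 times on day 3 (SD, n = 3).

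Serpine2 encodes glia-derived nexin, a secreted serpin that inhibits thrombin, urokinase and, less well, the tissue-type activator. It lies on chr1:79794197-79861180 (minus strand) and had the highest FPKM of the 6 genes. The length behind its FPKM was 2055 bases, and its longest transcript in GENCODE M21 had 3393. For F3, the next in level, these were 1876 and 1872 bases. The rank of the 2 genes and ratios to Serpine2 depend on these lengths. Untreated libraries measured 169, 172 and 169.6 FPKM, against 207, 214 and 201 on day 1 and 225, 219 and 228 on day 3. The groups did not overlap, in the order control, day 1, day 3. The log2 difference from control was 0.33 on day 1 and 0.42 on day 3, and day 3 was 0.09 above day 1, each ± 0.0232 (SE). Under quantile normalization, which gives every library the same distribution of values, the day 1 difference was 0.15 and day 3 was 0.23 above day 1. Serpine2 was the only inhibitor among the 6, and its level relative to the sum of Plau and Plat was 2.54 ± 0.022 in control, 2.94 ± 0.0925 on day 1 and 3.28 ± 0.140 on day 3 (SD, n = 3). That sum itself was 66.9 ± 0.737, 70.6 ± 0.0883 and 68.2 ± 1.72 FPKM. On day 1 Serpine2 and the sum were both above control, and from day 1 to day 3 Serpine2 rose while the sum fell.

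F3 encodes tissue factor and lies on chr3:121723537-121735048 (plus strand). The level was 98.4, 101 and 97.4 FPKM in control, 107, 105 and 106 on day 1, and 105, 107 and 100.1 on day 3. Day 1 lay above control in every library, whereas day 3 replicate 3 was below control replicate 2. The log2 difference from control was 0.14 on day 1 and 0.09 on day 3, each ± 0.0332 (SE). Day 3 differed from day 1 by -0.05. Without day 3 replicate 2 the day 3 difference from control was 0.06 and that from day 1 was -0.08, and without day 3 replicate 3 they were 0.12 and -0.02. With quantile normalization the day 1 difference was 0.00135, and that of day 3 from day 1 was 0.06, with the opposite sign.

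Thbd encodes thrombomodulin and is a gene of 1 exon on chr2:148404466-148408188 (minus strand). Its level was 16.6, 15.6 and 16.4 FPKM in control, 11.1, 11.2 and 10.5 on day 1, and 20.7, 17.4 and 20.2 on day 3. The groups did not overlap, with day 1 lowest and day 3 highest. The log2 difference from control was -0.52 on day 1 and 0.28 on day 3, and day 3 was 0.80 above day 1, each ± 0.0556 (SE). Day 3 replicate 2 was the lowest of its group, and without it the day 3 difference was 0.35. The 3 day 3 libraries varied by 9.16%, where counting error would give 2.01%. The level of F3 relative to Thbd was 6.13 ± 0.337 in control, 9.70 ± 0.398 on day 1 and 5.39 ± 0.652 on day 3 (SD, n = 3). The day 1 ratios, 9.37 to 10.1, lay above those of the other libraries, while control (5.93 to 6.52) and day 3 (4.95 to 6.14) overlapped.

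**Figure D2:**
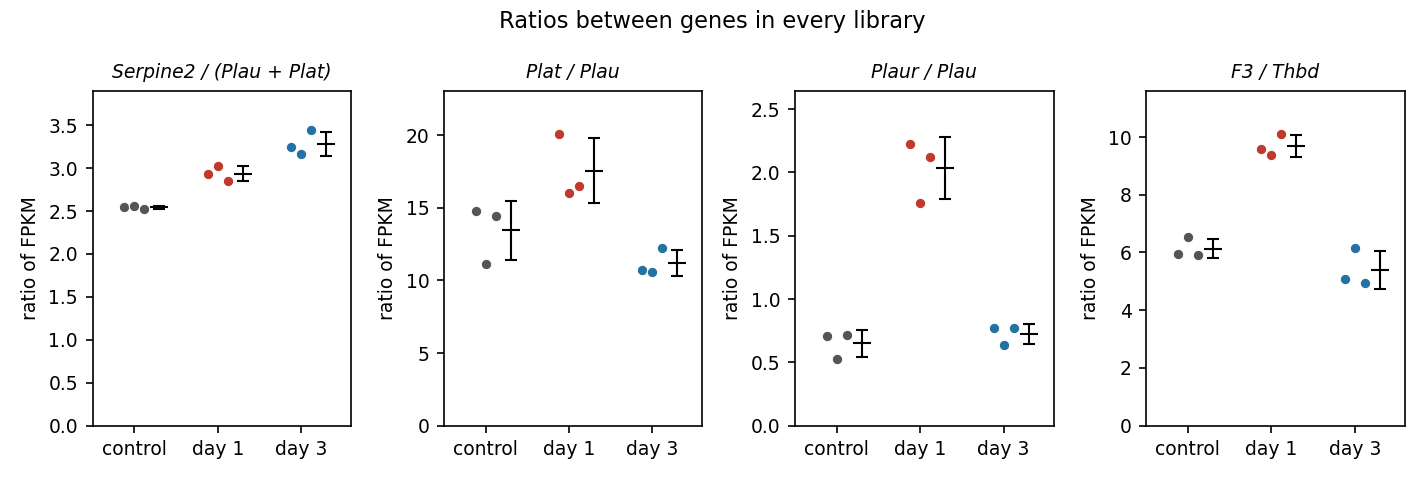
Ratios of FPKM levels between the genes in each library (vertical axis, no unit, from 0) for 3 control, 3 day 1 and 3 day 3 libraries. Points are libraries and the bars the mean ± SD. Plaur over Plau and F3 over Thbd stand apart on day 1, while Serpine2 over the summed activators is lowest in control and highest on day 3.

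The order of levels per length was Serpine2, F3, Plat, Thbd in every group, followed by Plau and Plaur. Plau was above Plaur in control and on day 3, and Plaur was above Plau on day 1. In control, Serpine2 stood at the 98.2 percentile of the genes tested, F3 at 96.3, Plat at 92.8, Thbd at 66.6, Plau at 27.8 and Plaur at 17.7. On day 1 Plaur stood at 43.3 and Thbd at 54.6, and on day 3 they stood at 24.5 and 72.3.

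All 6 genes had groups that did not overlap on day 1 against control, 4 higher and 2 lower, where 66.1% of the 12611 genes tested (those averaging 1 FPKM or more over the 9 libraries) did not overlap in either direction. On day 3 against control, 3 of 6 did not overlap (Serpine2, Plaur and Thbd, all higher), against 30.3% of genes tested. Between day 1 and day 3, 5 of 6 did not overlap, all but F3, against 61.8%. After rescaling of the libraries, F3 also no longer overlapped between control and day 3. The median log2 difference of the 6 genes was 0.14 on day 1, 0.28 on day 3 and 0.02 between the days, and that of all genes tested was 0.00858, 0.00846 and -0.00665. All 6 passed the filter on low values. Both comparisons with control share the same 3 control libraries.

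**Figure D3:**
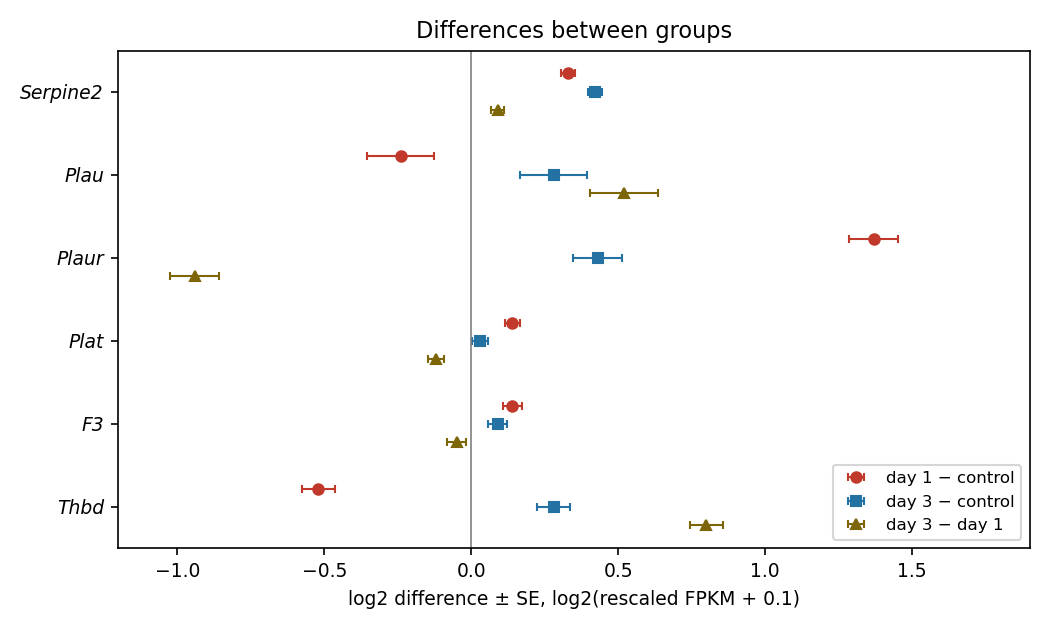
Log2 difference (horizontal axis) between groups for each of the 6 genes on the scale of log2(rescaled FPKM + 0.1), with bars of ± 1 SE. Circles are day 1 minus control, squares day 3 minus control and triangles day 3 minus day 1. Plaur on day 1 is farthest right at 1.37, and Thbd and Plau lie left of 0 on day 1 and right of it on day 3.

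For each of the 6, the genes whose level was most like it were taken by Pearson's r over the 9 libraries, among those averaging 5 FPKM or more. The 9 points fall in the same 3 groups for every gene, so a high r mostly reflects a like order of the groups. Nearest to Plaur were Mybl1 (r = 0.996), Rock2 (0.996) and Timp3 (0.995). Timp3, an inhibitor of matrix metalloproteinases, stood at 281 FPKM in control, 379 on day 1 and 308 on day 3. Nearest to Thbd were Cgnl1 (0.988), Prkar1b (0.988) and Ank (0.987), and nearest to Serpine2 were Ephx1 (0.981), Ctsd (0.979) and Perp (0.970). Ctsd, the lysosomal protease cathepsin D, stood at 1029, 1155 and 1243 FPKM in the 3 groups. Plat was most like Rnh1 (0.987), Pitpna (0.986) and Dnajb9 (0.982). F3 (Stmn2 0.945, Golga5 0.943, Ddx58 0.939) and Plau (Glrx 0.969, Son 0.942, Ly6e 0.940) had looser neighbours.

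The other genes of the pathway were read from 5 lists with 72 genes, of which 43 averaged 1 FPKM or more and were tested. The lists were drawn up with earlier results of these data known. Their counts and p-values therefore describe these libraries and are no independent test of the pathway. A gene was called changed at a Benjamini-Hochberg adjusted p below 0.05 in limma over all genes tested. On day 1, 26 of the 43 rose and 10 fell, where 32.4% of all genes tested were called higher and 29.7% lower. On day 3 against control 12 rose and 2 fell, where 7.68% were called higher and 6.3% lower. From day 1 to day 3, 12 rose and 23 fell, where 26.6% and 29.4% of all genes were called. The median log2 difference over the 43 was 0.35 on day 1, 0.10 on day 3 and -0.20 between the days.

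Of the receptors that bind plasminogen or clear protease complexes, 11 of 12 were tested, and on day 1 7 rose and 2 fell (median log2 difference 0.20). Plg, plasminogen itself, had a mean of 0.00762 FPKM and was not tested. Anxa2 and S100a10, the 2 chains of a surface complex that binds plasminogen and its tissue-type activator, rose on day 1. Anxa2 was 225 ± 6.75 FPKM in control, 304 ± 7.29 on day 1 and 237 ± 6.56 on day 3 (SD, n = 3), a 1.39-fold rise on day 1 (limma, adjusted p = 3.88e-07). S100a10 was 105 ± 2.33, 133 ± 3.61 and 114 ± 2.34 FPKM, 1.30-fold up on day 1 (adjusted p = 2.09e-06). Its day 3 call (adjusted p = 0.0197) was lost without control replicate 1, control replicate 2 or day 3 replicate 3. Vldlr, an endocytic receptor for serpin complexes, rose 1.71-fold (adjusted p = 5.44e-06), and Igf2r, a sorting receptor that binds the urokinase receptor, rose 1.70-fold (adjusted p = 7.6e-08). Lrp1, the main clearance receptor for activators bound to serpins, went the other way: 99.7 ± 5.38 FPKM in control, 79.7 ± 1.93 on day 1 (adjusted p = 5.04e-05) and 116 ± 2.72 on day 3 (adjusted p = 0.00156). Lrp2, a relative of Lrp1, fell 1.48-fold on day 1 (adjusted p = 1.06e-05) and stayed below control on day 3 (adjusted p = 0.00839). On day 3 Igf2r, S100a10 and Lrp1 were higher than control and the other 7 tested were not called. The call of Lrp8, 1.06-fold higher on day 1, was lost under 15 other settings, among them the loss of any 1 library.

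Of 21 serpins and other protease inhibitors, 13 were tested, and on day 1 8 rose and 5 fell (median log2 difference 0.43). Tfpi, the inhibitor of tissue factor with factor VII, was 5.53 ± 0.293 FPKM in control, 10.1 ± 1.15 on day 1 and 7.98 ± 0.644 on day 3 (SD, n = 3), higher on both days (limma, adjusted p = 6.25e-06 and 0.00223). Its relative Tfpi2, which inhibits plasmin, rose 5.51-fold on day 1 from 0.514 ± 0.159 FPKM (adjusted p = 5.92e-06). The day 3 call of Tfpi2 (adjusted p = 0.043) was lost under 12 other settings, among them leaving out any 1 library except control replicate 2 and day 3 replicate 2. Serpinf1, the secreted pigment epithelium-derived factor, rose from 149 ± 8.24 to 341 ± 17.6 FPKM (adjusted p = 5.57e-08), and Serpinb8, an intracellular serpin, rose 1.95-fold (adjusted p = 1.73e-06). Serpinf1 is known as a serpin that does not inhibit proteases, and Serpinh1, a collagen chaperone that rose 1.81-fold (adjusted p = 7.06e-08), is another. Serping1, which stops the first complement proteases, fell from 35.6 ± 1.61 to 11.5 ± 0.866 FPKM (adjusted p = 3.79e-09) and was 35.3 ± 0.219 on day 3. Serpina3n, an inhibitor made by reactive astrocytes, fell from 644 ± 6.1 to 301 ± 9.91 FPKM (adjusted p = 2.33e-09). Vtn, vitronectin, is counted in this list but is not itself a protease inhibitor. Vtn fell from 2.58 ± 0.34 to 0.537 ± 0.228 FPKM (adjusted p = 3.24e-05), and Spint2 fell 1.37-fold (adjusted p = 0.00494). On day 3 against control 5 of the 13 rose and 1 fell. Serpinf1 (176 ± 14.9 FPKM, adjusted p = 0.0158) was among those that rose, and Serpina3n (582 ± 17.6 FPKM, adjusted p = 0.0122) was the one that fell. The day 3 call of Serpinf1 was lost without control replicate 1 or day 3 replicate 3, and that of Serpina3n without day 3 replicate 1 or without the 2 libraries with the highest Rn45s share. From day 1 to day 3, 5 rose and 7 fell. Serpinc1, Serpind1 and Serpinf2, the circulating inhibitors of thrombin and plasmin, were each under 1 FPKM.

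Of 24 clotting factors, cofactors and proteins that process them, 10 were tested, and on day 1 5 rose and 1 fell (median log2 difference 0.23). F7, the partner of tissue factor, F9 and F10, the zymogens their complex cuts, F2, prothrombin, and the fibrinogen genes Fga, Fgb and Fgg were each under a mean of 1 FPKM. Procr, the receptor that presents protein C to thrombin on thrombomodulin, rose from 1.87 ± 0.506 to 2.94 ± 0.205 FPKM (SD, n = 3; limma, adjusted p = 0.00407), opposite to Thbd. Lman1 and Mcfd2, the carrier that brings clotting factors out of the endoplasmic reticulum, rose 1.36-fold and 1.31-fold (adjusted p = 6.23e-07 and 1.49e-05). Anxa5, which covers phosphatidylserine, rose 1.33-fold (adjusted p = 2.27e-07). Gas6, a ligand related to protein S, fell from 82.5 ± 1.9 to 71.8 ± 1.54 FPKM on day 1 (adjusted p = 0.00075) and was 95.8 ± 1.25 on day 3 (adjusted p = 0.000648). On day 3 Anxa5, Gas6 and Pros1, protein S, were higher than control, and the other 7 were not called. The Pros1 call (52.6 ± 1.55 against 47.7 ± 0.328 FPKM, adjusted p = 0.0131) was lost without day 3 replicate 1.

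Of the 4 protease-activated receptors, only F2r, the main thrombin receptor, was tested. It was 44.2, 45.4 and 46.9 FPKM in control, 76, 78 and 78.6 on day 1, and 47.3, 44.8 and 49 on day 3. F2r rose 1.75-fold on day 1 (limma, adjusted p = 1.72e-08), and the day 3 libraries overlapped control (adjusted p = 0.222).

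Of 11 growth factors cut by these proteases and their receptors, 8 were tested, and on day 1 5 rose and 2 fell (median log2 difference 0.26). Pdgfc, a growth factor released by the tissue-type activator, rose from 11.8 ± 0.391 to 21.3 ± 0.236 FPKM (SD, n = 3; limma, adjusted p = 7.97e-09) and was the 1 gene of the list above control on day 3, at 13.7 ± 0.452 (adjusted p = 0.00115). Bdnf, a neurotrophin whose precursor plasmin cuts, rose 1.30-fold on day 1 (adjusted p = 0.00333). Ntrk2, the receptor for mature Bdnf, fell from 85 ± 1.61 to 53.3 ± 3.3 FPKM (adjusted p = 2.18e-07) and was 82.5 ± 1.43 on day 3. Hgf, which urokinase can activate, fell 1.45-fold on day 1 (adjusted p = 0.00138), and its receptor Met rose 1.18-fold (adjusted p = 0.000704). The call of Ngfr, 1.22-fold higher on day 1, was lost under 7 other settings, among them leaving out control replicate 1, control replicate 2 or day 1 replicate 2.

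**Figure D4:**
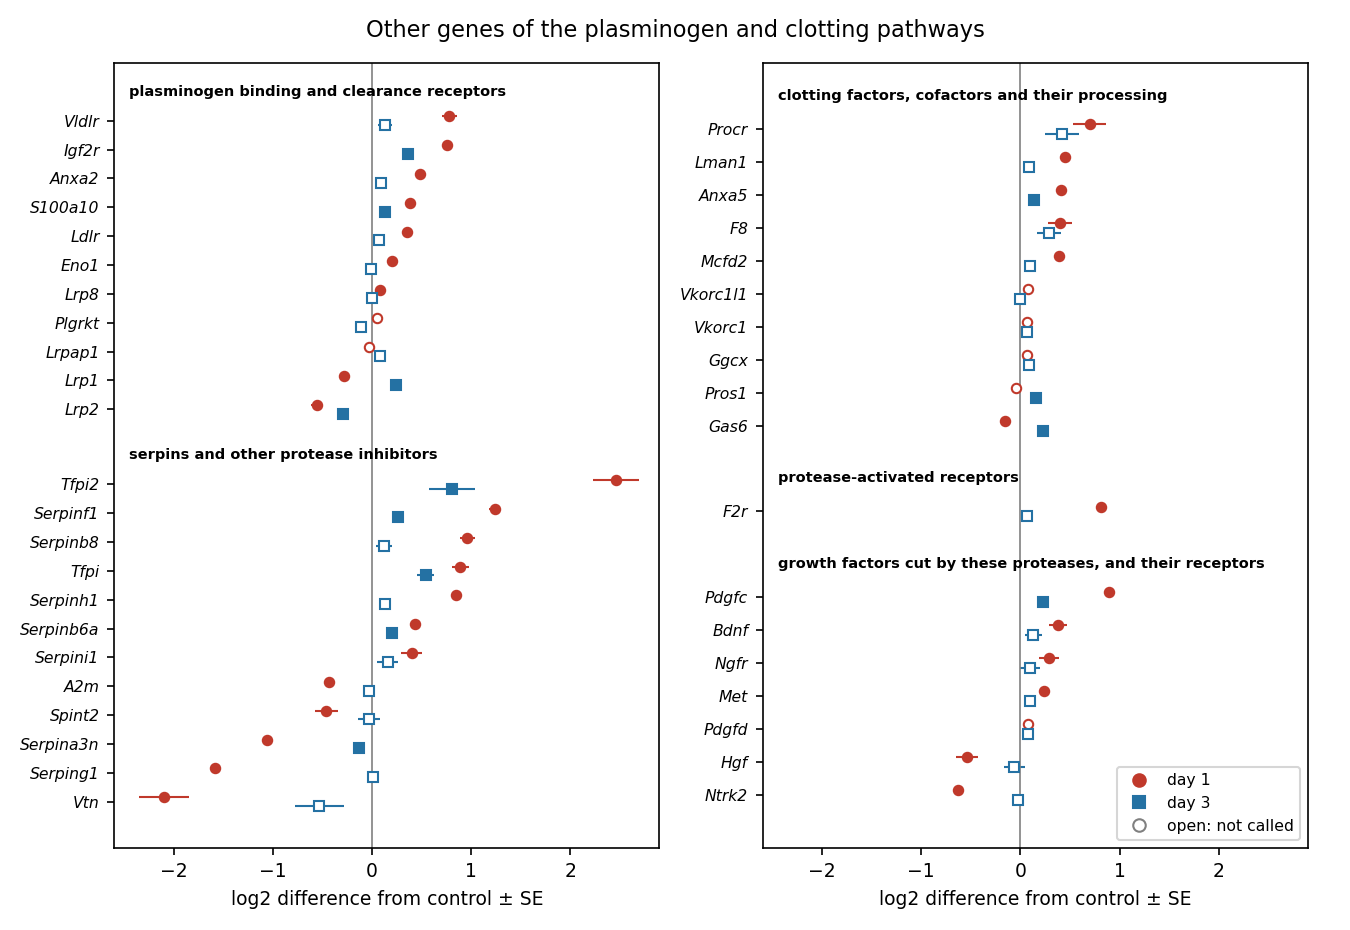
Log2 difference from control ± SE (horizontal axis) for 41 of the 43 tested genes of the 5 pathway lists, on the scale of log2(rescaled FPKM + 0.1). Red circles are day 1 and blue squares day 3, and open symbols were not called. Most day 3 symbols lie nearer to 0 than the day 1 symbols of the same gene.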

How the data were processed

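RNA-seq levels of 9 libraries, 3 per group, were read from 1 table of FPKM per gene that the authors deposited. FastQC 0.12.1, cutadapt 2.6, STAR 2.7.3a, DESeq2 and builds GRCm38 and mm10 are named in the submitters' processing notes, and the sources used here name no counting tool. Libraries were rescaled by the median of ratios, and the 12611 genes averaging 1 FPKM or more were tested with limma 3.58.1 in R 4.3.3 on log2(FPKM + 0.1), with group as the only term, all 9 libraries and an intensity trend, and Benjamini-Hochberg adjusted p-values. The FPKM steps gave whole reads for all 20350 genes above 0 (tolerance 0.01), and limma-voom on those reads was an alternative. The fit was tested on simulated data. The 6 genes and all gene lists were chosen with earlier results of these data known. Named pathway genes were, of each list and comparison, up to 4 called genes with the largest rise and up to 4 with the largest fall, the other genes named being examples chosen after their values were seen. Some genes that this rule names are not reported here, though they are in all counts and medians. Same-numbered libraries of different groups correlated at -0.0791 to 0.111 in their deviations from group means, so the numbers were not taken to pair libraries. Alternatives were 2 pseudocounts, 2 filters, 2 scalings, fits to 6 libraries, a replicate block and leaving out each library. Leaving out the 2 libraries with the highest Rn45s share was added after seeing the data.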

Additional observations from a re-analysis of the deposited data

Results flagged for a closer look

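Thbd lay on opposite sides of control on the 2 days: every day 1 library was below every control library and every day 3 library above, a difference between the days of 0.80 on the log2 scale, which was not tested because the gene was chosen from these levels. Among the pathway genes, Lrp1 was called lower than control on day 1 (-0.28) and higher on day 3 (0.24), with 0.52 between the days. Gas6 did the same, with -0.16 on day 1, 0.23 on day 3 and 0.39 between the days. Both genes were picked by these opposite calls. The calls fix the sign of the difference between the days, so that difference adds no support. Of the 12611 genes tested, 87 (0.690%) were called lower on day 1 and higher on day 3, and 78 (0.619%) the reverse. Peroxide and time in culture cannot be told apart in any of these differences.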

How the results depend on the processing

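No called pathway gene changed direction under any alternative, and of the 6 genes only F3 did, between the days under quantile normalization. With a filter at a mean of 5 FPKM, which tests fewer genes, 17 pathway genes were called higher and 6 lower on day 1 (26 and 10 before), and 1 lower on day 3 (2 before). Without rescaling, the day 1 differences were 0.29 for Serpine2, 0.10 for Plat and 0.09 for F3, and day 3 against control gave 661 genes higher and 861 lower in place of 968 and 794; the cause was not tested. With quantile normalization, Serpine2 was 0.15 on day 1, 0.38 on day 3 and 0.23 between the days; Plat was 0.05 on day 1 and -0.03 between the days; F3 was 0.00135 on day 1 and 0.06 between the days, a change of sign from -0.05; the cause was not tested. A pseudocount of 1 FPKM, which shrinks low values, gave Plaur 1.16 on day 1 and -0.81 between the days. Without the 2 libraries with the highest Rn45s share, Thbd was 0.38 on day 3 and 0.87 between the days, and 1 pathway gene was lower on day 3. Leaving out 1 library at a time gave 556 to 982 genes higher and 445 to 831 lower on day 3 against control, falling most without day 3 replicate 1 or 3; without control replicate 1, 2 or 3 the lower count was 524, 516 and 521. It also gave 1 to 3 pathway genes lower on day 3, and Thbd at 0.24 to 0.35 on day 3 and 0.76 to 0.87 between the days. The replicate block gave 25 pathway genes higher and 10 lower on day 1 and 13 and 2 on day 3, and the pairing by number ended the day 3 call of Tfpi2 (adjusted p = 0.0659) and both calls of Lrp8, and added day 3 calls of Anxa2 and Serpinh1. Plaur and Plau had the fewest reads of the 6 genes, at 135 to 510 a library. The spread of Plau exceeded counting error in every group (15.8% against 5.31% in control, 11.4% against 6.76% on day 1, 9.34% against 4.7% on day 3).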
